A study of Mus musculus with 7 samples.

Results

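The chemokine genes and a set of genes of the NF-kB pathway were compared between mouse embryonic fibroblasts (MEFs, fibroblasts grown from mouse embryos) and mouse embryonic stem cells (mESCs, pluripotent cells grown from the early embryo). Genes were taken by symbol, with earlier results of these data known when the set was chosen. They were all genes named Ccl or Cxcl with a number, the chemokine Cx3cl1, and 16 genes of the NF-kB pathway or its targets (Nfkb1, Nfkb2, Rela, Relb, Rel, Nfkbia, Nfkbib, Tnfaip3, Tnfrsf1a, Il1r1, Il1rl1, Myd88, Ikbkb, Ptgs2, Icam1 and Vcam1). This gave 55 of the 55484 genes in the count table, of which 39 were chemokines. The 4 MEF and 3 mESC libraries carry a C57/Bl6 background in the labels, and no treatment is given for either cell type. The study's legends call its transcriptional samples biological replicates, fewer per cell type than the MEF libraries here, and neither they nor the labels tell which animals, lines or cultures the libraries came from. All MEF columns of the count table begin with MEF1 and all mESC columns with mESC1, although sample titles run from MEF1 to MEF4 and mESC1 to mESC3. Whether the libraries of a cell type share a line or preparation is not known. The p-values therefore measure the spread between these samples. The preparation text in the labels names blood stem cells from young and aged mice, which are not the cells named for these samples.

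Chemokines are small secreted or membrane-bound proteins that direct the movement of cells, above all white blood cells, through G protein-coupled receptors. Fibroblasts are a known source of several of them. NF-kB is a family of dimeric transcription factors that are held in the cytoplasm by inhibitor proteins. Signals through the receptors for TNF and interleukin-1 lead to phosphorylation and loss of the inhibitors, and the dimers then enter the nucleus and switch on genes that include many chemokines and the inhibitors themselves.

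Library totals ran from 6528643 to 11441278 counts on genes. A count of 3 was taken as the floor of a library, which corresponded to between 0.288 and 0.477 CPM (counts relative to the TMM-scaled library size) and covers counting error only. All 10 fibroblast markers were higher in MEFs, with summed levels of 23690 to 40749 CPM in MEFs and 169 to 193 CPM in mESCs, so that a median of 0.850% of the MEF level was seen in mESCs. Of the mESC markers, 9 of 10 had enough counts to be tested and all 9 were higher in mESCs. Below, MEF libraries are called O1 to O4 and mESC libraries Y1 to Y3 after the ends of their column names, and values are listed in that order. Log2 fold changes are mESC over MEF, so negative values are higher in MEFs. Adjusted p-values are from the quasi-likelihood test of edgeR (Benjamini-Hochberg adjustment over the 16580 genes tested). The standard error (SE) is approximate. It was taken as the size of the log2 fold change over the square root of the F statistic of that test. In bulk samples, fewer cells of a type and less RNA per cell cannot be told apart.

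NF-kB dimers bind short DNA sequences of a known form. A single fixed pattern of this form was looked for in the 300 bases from 250 before to 50 after each gene's start (RefSeq, GRCm38.p6). Sequences that depart from the pattern or lie outside this window were not searched, so a gene without a match may still hold such a sequence. The pattern searched was GGGNNNTTCC on either strand (GGAANNNCCC on the other), and matches on both strands may overlap. Of 27025 genes with such a window, 6.31% held at least 1 match. A window was found for 38 of the 55 chemokine and NF-kB genes, so no share over the whole set is given. Of these 38, 12 held a match. Among those tested, matches were held by 6 of 16 genes higher in MEFs and 3 of 9 genes not higher in MEFs. The sequences shown are those of the chemokine genes Cxcl1, Cxcl2 and Cxcl3, which lie in the same region of chromosome 5 but differed in their counts, and of Ccl20 and Nfkbia, a chemokine and an inhibitor gene that were both higher in MEFs. Capitals mark the matches, and a match is a description of the letters, not a site shown to be bound. Distances are counted from the RefSeq start, which for Cxcl1, Cxcl2 and Cxcl3 is not the start of the gene position given for them in the annotation used below.
Cxcl1, chr5:90891136-90891204, plus strand, matches 89 to 61 bases before the start: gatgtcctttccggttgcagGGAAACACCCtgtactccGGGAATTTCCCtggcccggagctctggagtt
Cxcl2, chr5:90903782-90903850, plus strand, matches 97 to 69 bases before the start: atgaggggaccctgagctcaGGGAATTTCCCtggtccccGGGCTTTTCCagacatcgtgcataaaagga
Cxcl3, chr5:90786008-90786080, plus strand, matches 73 to 41 bases before the start: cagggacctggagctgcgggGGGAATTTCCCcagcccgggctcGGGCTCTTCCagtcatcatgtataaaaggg
Ccl20, chr1:83116666-83116715, plus strand, a match 80 to 71 bases before the start: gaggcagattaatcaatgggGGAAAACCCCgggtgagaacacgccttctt
Nfkbia, chr12:55492648-55492696, minus strand, a match 29 to 20 bases before the start: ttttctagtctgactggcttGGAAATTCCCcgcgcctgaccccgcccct
Cxcl1, Cxcl2 and Cxcl3 each held 3 matches within a short stretch, counted over both strands. In each of them the letters GGGAATTTCCC were matched on both strands, so these matches overlap and are not separate places. Of the CXC windows shown, that of Cxcl1 belongs to a gene that was higher in MEFs, that of Cxcl2 to a gene that missed the threshold and that of Cxcl3 to a gene with too few counts to be tested.

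In these data the tested genes of the set were either higher in MEFs or not called. Of the 55 genes, 35 had enough counts to be tested, 21 were higher in MEFs, 0 were higher in mESCs and 14 passed in neither direction. Over all genes tested, 25.0% were higher in MEFs and 22.8% were higher in mESCs by the same rule. Icam1 passed in the mESC direction at an unadjusted p under 0.05, and the same single gene was called in that direction by DESeq2. The median log2 fold change was -2.62 over the 35 genes and 0.04 over all genes tested. Chemokines accounted for 13 calls of 19 tested (median -4.79), and the NF-kB pathway and target genes for 8 of 16 (median -0.72). Of the 35, 8 passed the filter on low counts with no mESC library above its level. These genes could hardly be called in the other direction. All 8 were chemokines called as higher in MEFs (Ccl2, Ccl5, Ccl9, Ccl11, Ccl17, Ccl20, Cxcl1 and Cxcl13). The share and median of chemokines therefore cannot be set against those of the NF-kB genes. The medians describe the tested genes and not all 55. Of the other 27, 13 were higher in MEFs, among them all 8 called NF-kB pathway and target genes.

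**Figure D1:**
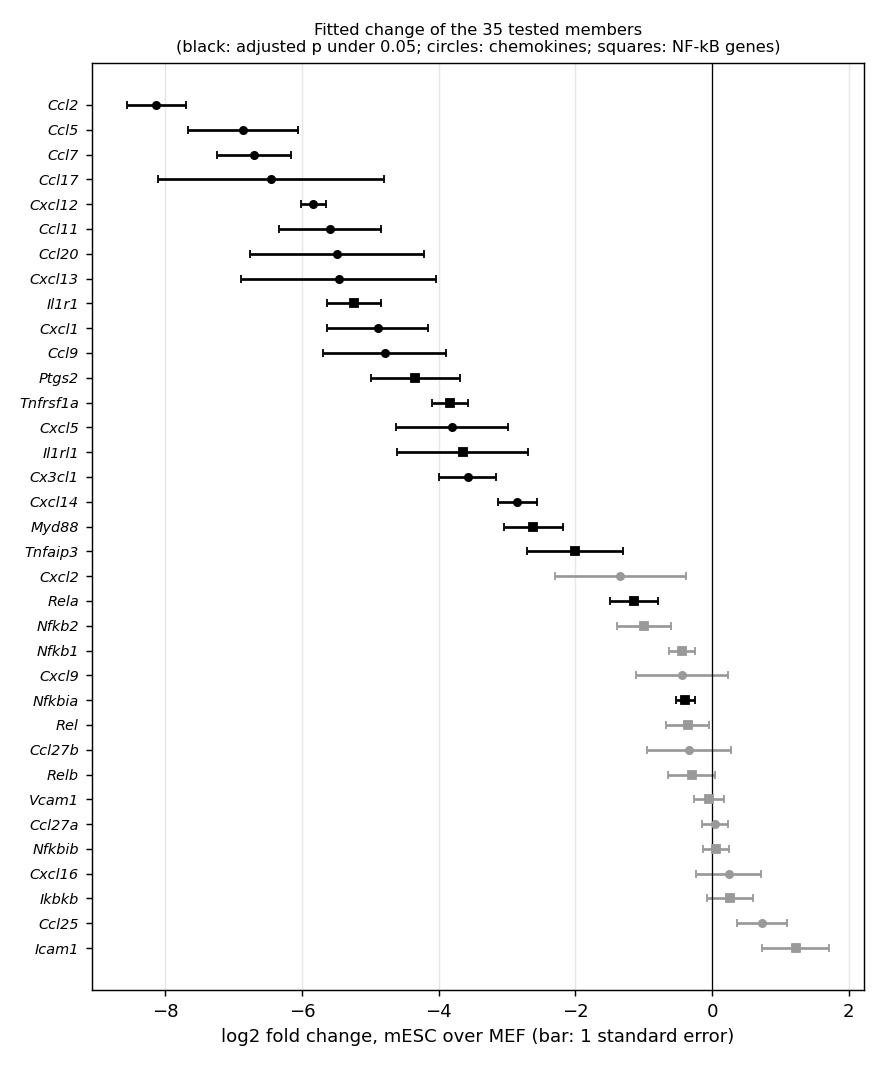
Fitted log2 fold change of mESC over MEF (horizontal axis, bars of 1 SE) for the 35 tested genes, ordered by size, with chemokines as circles and NF-kB genes as squares. Black symbols have an adjusted p under 0.05 and all 21 lie left of 0, from -8.13 for Ccl2 to -0.39 for Nfkbia.

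The CC chemokines Ccl2 and Ccl7, which draw monocytes through the receptor Ccr2, were abundant in MEFs and low in mESCs, where Ccl2 was near the floor in every library and Ccl7 was clearly over it in Y3. Their genes are neighbours on chromosome 11 (Ccl2 at chr11:82035571-82037453 and Ccl7 at chr11:82045712-82047525, both on the plus strand of GRCm38). Ccl2 stood at 262, 194, 112 and 125 CPM in the MEF libraries and at 0.650, 0.682 and 0.472 CPM in the mESC libraries. The groups lay far apart, although O1 held more than O3 and O4. The fitted difference was 280.1-fold (log2 fold change -8.13, SE 0.44, adjusted p = 1.96e-07). Ccl7 stood at 196, 165, 79.3 and 85.7 CPM in MEFs and at 0.867, 0.568 and 2.36 CPM in mESCs. O1 and O2 were again the highest, and no library of one group reached the other. The fitted fold was 104 (log2 fold change -6.70, SE 0.54, adjusted p = 3.35e-06).

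Ccl11 (eotaxin, an attractant of eosinophils through Ccr3) is the next gene of this group, at chr11:82057823-82062955. Its levels were 4.70, 7.16, 3.71 and 9.22 CPM in MEFs and 0.108, 0 and 0.236 CPM in mESCs. All MEF libraries were above the floor and all mESC libraries were below it. With 3 counts over the mESC libraries, the ratio of pooled counts, MEF over mESC, was 51.7, with a 95% interval of 17.4 to 253 that covers counting error only. The fitted value, which for such low counts depends on the prior count, was log2 fold change -5.59, SE 0.75, adjusted p = 1.31e-04. The chemokine genes Ccl12 and Ccl8, which follow on the same chromosome, did not pass the filter. Ccl12 had 0, 0, 15 and 7 counts in MEFs and 0 in every mESC library, and Ccl8 had 4 counts in Y3 and 0 in the others. The neighbours Ccl2 and Ccl7 thus had counts in every library, and Ccl12 and Ccl8 in some.

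Ccl5 and Ccl9, from a second group on chromosome 11, were low in MEFs and nearly absent from mESC libraries. Ccl5 (RANTES, an attractant of T cells) lies at chr11:83525778-83530518 on the minus strand. It was measured at 4.70, 4.57, 5.87 and 9.38 CPM in MEFs and at 0.108, 0 and 0 CPM in mESCs. O4 was the highest, and the MEF libraries did not overlap with the mESC libraries. Only 1 count was found in mESCs, which gave a pooled ratio of 157, with a 95% interval of 27.8 to 6224 (log2 fold change -6.86, SE 0.80, adjusted p = 4.97e-05). Ccl9, a ligand of Ccr1, was measured at 1.53, 1.22, 3.12 and 4.13 CPM in MEFs and at 0.108, 0 and 0.118 CPM in mESCs. O3 and O4 held the most, and the groups did not overlap. Its pooled ratio was 31.9, with a 95% interval of 8.52 to 268 (log2 fold change -4.79, SE 0.90, adjusted p = 0.00124). Ccl9 no longer passed the filter when O1, O3 or O4 was left out, nor when O3 and O4 were left out together. The summed levels of the macrophage markers and of the fibroblast markers, described further below, were also highest in O3 and O4. The part of either cell type in the Ccl9 level was not tested.

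Ccl17 and Ccl20 varied so much between MEF libraries that their calls rested on some of them. Ccl17, a ligand of Ccr4 on chromosome 8, was at 7.10, 9.30, 0 and 2.07 CPM in MEFs and at 0, 0.114 and 0 CPM in mESCs. O1 and O2 held nearly all of it and O3 had 0 counts, so that the groups overlapped. The pooled ratio was 124, with a 95% interval of 21.9 to 4933 (log2 fold change -6.46, SE 1.65, adjusted p = 0.00786). Without O1, O2 or O4 the gene was no longer tested. Ccl20, a ligand of Ccr6, was at 9.02, 3.96, 2.76 and 0.318 CPM in MEFs and at 0, 0 and 0.236 CPM in mESCs. O1 was the highest, and O4, with 2 counts, was under the floor but still above each mESC library. With 2 counts in mESCs, the pooled ratio was 60.8, with a 95% interval of 16.5 to 507 (log2 fold change -5.49, SE 1.28, adjusted p = 0.00465). Without O1, O2 or O3 it too no longer passed the filter.

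The other CC chemokines with enough counts did not pass the test. Ccl27a, a skin chemokine that acts through Ccr10, was at 20.9, 21.2, 22.3 and 24.6 CPM in MEFs and at 21, 21.5 and 26.1 CPM in mESCs. The libraries of the groups overlapped almost fully (log2 fold change 0.04, SE 0.19, adjusted p = 0.888). Other genes, such as Gm20878, share 45.0% of its 50-base sequences, and its exons overlap those of Il11ra1 on the other strand, so its counts are uncertain. Ccl27b, of which 98.1% of such sequences are shared, was at 1.63, 3.96, 1.44 and 1.27 CPM in MEFs and at 1.63, 0.795 and 2.48 CPM in mESCs, with overlapping groups (log2 fold change -0.34, SE 0.61, adjusted p = 0.69). Ccl25, known for drawing cells to the thymus and gut through Ccr9, was at 6.62, 4.27, 9.23 and 12.1 CPM in MEFs and at 9.32, 15.8 and 15.0 CPM in mESCs. O4 fell among the mESC libraries (log2 fold change 0.73, SE 0.37, adjusted p = 0.128). Ccl25 exons overlap those of Elavl1 on the other strand, and with no scaling beyond library size the gene passed as higher in mESCs (log2 fold change 1.001, adjusted p = 0.0447).

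The remaining 15 CC chemokine genes had too few counts. Ccl19, Ccl21a, Ccl1, Ccl3 and Ccl21c had 0 counts in every library, which allows up to 3 counts in each. Ccl21b, Ccl26, Ccl22 and Ccl27 had at most 2 counts in any library. Ccl24 had 8 counts in O3 and 0 elsewhere. Ccl6 had 1, 2, 25 and 0 counts in MEFs and 7, 0 and 0 in mESCs, so that O3 stood apart. Ccl4, an inflammatory chemokine, had 6, 1, 16 and 4 counts in MEFs and 0, 1 and 2 in mESCs, and Ccl28 had 2, 0, 0 and 8 and 2, 2 and 1. With Ccl12 and Ccl8, these 4 genes make up the untested CC genes that reached over 3 counts in some library, and Ccl4, Ccl6, Ccl12 and Ccl24 each had their highest count in O3.

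Of the 5 neutrophil-attracting CXC chemokine genes, which lie together on chromosome 5 and encode ligands of Cxcr2, Cxcl1 and Cxcl5 were higher in MEFs. Cxcl1 (chr5:90891241-90893115) was at 10.3, 8.69, 12.3 and 11.3 CPM in MEFs and at 0, 0.114 and 0.944 CPM in mESCs. All MEF libraries were alike and well above the mESC libraries, of which Y3 was the highest (29.7-fold, log2 fold change -4.89, SE 0.74, adjusted p = 3.00e-04). Cxcl5 (chr5:90759360-90761624) was at 12.9, 7.77, 10.9 and 12.1 CPM in MEFs and at 0.217, 0 and 2.12 CPM in mESCs. Again the groups did not overlap and Y3 held most of the mESC counts (14-fold, log2 fold change -3.80, SE 0.82, adjusted p = 0.00303). Without Y3, the values were log2 fold change -7.24, adjusted p = 4.19e-05 for Cxcl1 and log2 fold change -6.45, adjusted p = 1.02e-04 for Cxcl5. Cxcl2 (chr5:90903871-90905938) was at 2.49, 0.610, 2.52 and 0.477 CPM in MEFs and at 0.650, 0 and 1.18 CPM in mESCs. O2 and O4 fell among the mESC libraries, and the difference missed the threshold (log2 fold change -1.34, SE 0.96, adjusted p = 0.28).

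Cxcl3 and Cxcl15, of the same group, were not tested. Cxcl3 had 19, 1, 3 and 2 counts in MEFs and 0, 6 and 3 in mESCs, with most of them in O1. Cxcl15 had 5, 0, 6 and 3 counts in MEFs and 1, 0 and 1 in mESCs. Cxcl2 and Cxcl3 share 5.84% and 4.29% of their 50-base sequences with other genes, mainly each other.

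The interferon-inducible CXC chemokines, ligands of Cxcr3 that attract T cells, were low in both cell types. Cxcl9 was at 1.92, 0.457, 3.71 and 5.25 CPM in MEFs and at 1.73, 2.5 and 2.01 CPM in mESCs. MEF libraries lay on either side of the mESC libraries, and the gene did not pass (log2 fold change -0.44, SE 0.67, adjusted p = 0.628). Cxcl10 had at most 4 counts in a library, as had Cxcl11, which is annotated as a polymorphic pseudogene.

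Cxcl12 (SDF-1, the ligand of Cxcr4 that keeps blood stem cells in the bone marrow) had the smallest SE of the called chemokines. It lies at chr6:117168535-117181367 on the plus strand. Its levels were 331, 320.3, 370.2 and 299 CPM in MEFs and 6.39, 5.34 and 5.55 CPM in mESCs. The MEF libraries differed little, with 330.1 ± 29.95 CPM (SD, n = 4), and the mESC libraries, with 5.76 ± 0.559 CPM (SD, n = 3), differed little too. The fitted fold was 57.1 (log2 fold change -5.84, SE 0.18, adjusted p = 1.11e-08). Cxcl12 in mESCs was 1.74% of the MEF level, within the 0.452% to 16.6% that single fibroblast markers showed.

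Cxcl14, a chemokine made by many epithelia and fibroblasts, kept a clear level in mESCs. It was at 102, 93.8, 143 and 174 CPM in MEFs and at 20.6, 20.7 and 12 CPM in mESCs. O3 and O4 were the highest, and all MEF libraries exceeded all mESC libraries (7.21-fold, log2 fold change -2.85, SE 0.29, adjusted p = 1.73e-05). Cx3cl1 (fractalkine, a membrane-bound ligand of Cx3cr1) was at 16.9, 22.4, 11.5 and 9.22 CPM in MEFs and at 1.41, 1.25 and 1.06 CPM in mESCs. Here O1 and O2 were the highest, and the groups again did not overlap (11.9-fold, log2 fold change -3.58, SE 0.42, adjusted p = 4.97e-05).

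Cxcl13, which attracts B cells through Cxcr5, was at 3.55, 0, 3.48 and 2.07 CPM in MEFs and at 0.108, 0 and 0 CPM in mESCs. O2 had 0 counts, so the groups overlapped, and 1 count was found in mESCs. Its pooled ratio was 66.2, with a 95% interval of 11.5 to 2648 (log2 fold change -5.46, SE 1.42, adjusted p = 0.00879), and without O1, O3 or O4 it was no longer tested. Cxcl16, a membrane-bound ligand of Cxcr6, was at 2.78, 5.49, 2.16 and 5.09 CPM in MEFs and at 6.18, 2.5 and 4.96 CPM in mESCs. The groups were mixed (log2 fold change 0.24, SE 0.48, adjusted p = 0.713), and Cxcl16 exons overlap those of Zmynd15 on the other strand. Cxcl17 had at most 1 count in any library.

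**Figure D2:**
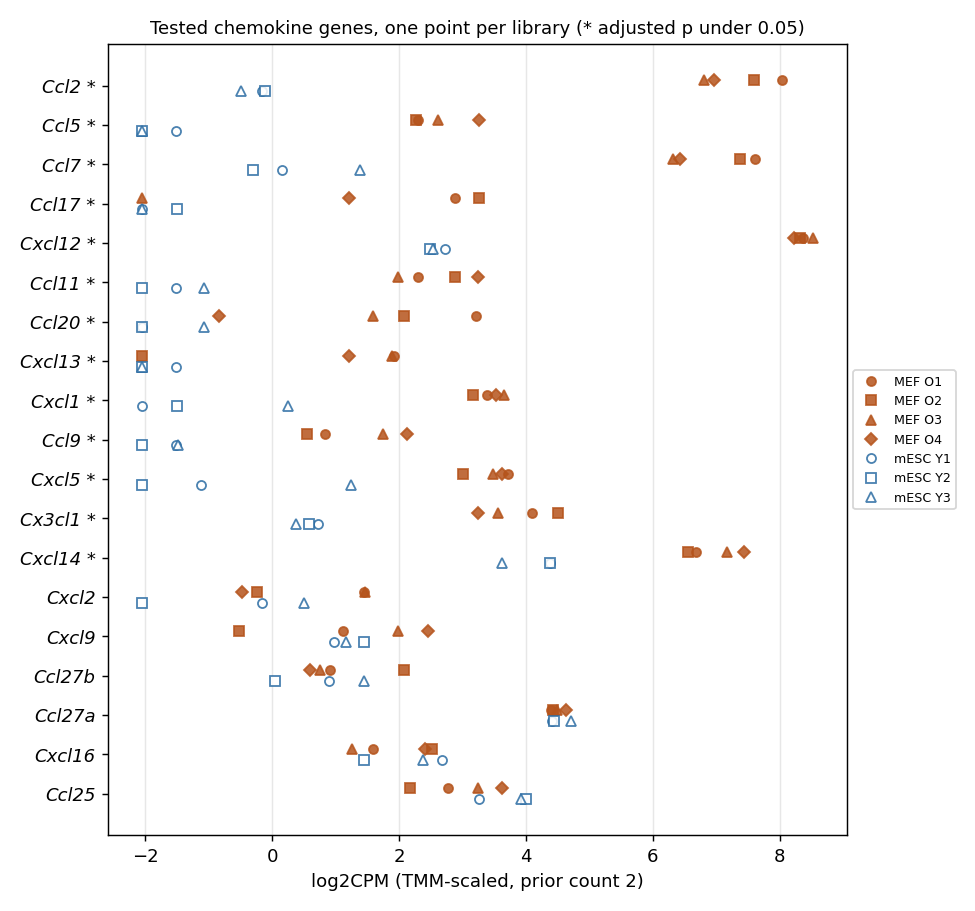
Level of each tested chemokine gene in every library (horizontal axis, log2CPM with a prior count of 2), with MEF libraries as filled and mESC libraries as open symbols and an asterisk at genes with an adjusted p under 0.05. Ccl2, Ccl7 and Cxcl12 show the widest gaps, while Ccl27a, Cxcl9 and Cxcl16 overlap.

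The 3 receptors in the set were all higher in MEFs. Il1r1, which binds interleukin-1, was at 112, 105, 92.5 and 77.0 CPM in MEFs and at 1.08, 4.43 and 2.12 CPM in mESCs. The libraries were well separated (37.8-fold, log2 fold change -5.24, SE 0.40, adjusted p = 2.19e-06). Tnfrsf1a, the main receptor for TNF, was at 61.5, 68.3, 95.9 and 71.6 CPM in MEFs and at 6.72, 3.75 and 5.07 CPM in mESCs. O3 was the highest and no mESC library came near a MEF library (14.3-fold, log2 fold change -3.84, SE 0.27, adjusted p = 1.15e-06). Il1rl1 (ST2, the receptor for interleukin-33) was at 15.3, 14.9, 3.00 and 1.27 CPM in MEFs and at 1.19, 0.114 and 0.708 CPM in mESCs. O1 and O2 were far above O3 and O4, and O4 was only just above Y1 (12.6-fold, log2 fold change -3.65, SE 0.96, adjusted p = 0.00941). Il33 itself, from a list of NF-kB ligands, was at 4.80, 9.45, 19.9 and 29.3 CPM in MEFs and at 3.03, 2.16 and 2.01 CPM in mESCs (log2 fold change -2.71, SE 0.59, adjusted p = 0.0032). Among the MEF libraries the ligand was highest where the receptor was lowest, in O3 and O4.

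Of the steps between receptor and NF-kB, the adaptor was higher in MEFs and the kinase was not called. Myd88, the adaptor of interleukin-1 and Toll-like receptors, was at 14.7, 22.0, 23.2 and 14.6 CPM in MEFs and at 5.20, 1.48 and 2.36 CPM in mESCs. All MEF libraries were above all mESC libraries, and Y1 was the highest of the latter (6.13-fold, log2 fold change -2.62, SE 0.43, adjusted p = 5.50e-04). Myd88 exons overlap those of Acaa1a on the other strand, and the strand setting of the counting is not given in the sources used here. Ikbkb (IKK-beta, the kinase that phosphorylates the inhibitors) was at 13.0, 7.32, 11.7 and 16.4 CPM in MEFs and at 9.32, 15.9 and 18.3 CPM in mESCs. The libraries of both groups spanned a similar range (log2 fold change 0.26, SE 0.33, adjusted p = 0.557).

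Differences among the 5 NF-kB subunit genes were small beside those of the receptors. Rela (p65, the subunit with the activating domain of the main dimer) was at 29.2, 32.3, 28.9 and 33.4 CPM in MEFs and at 23.5, 7.04 and 11.4 CPM in mESCs. No library overlapped, but Y1 was far above Y2 and Y3 (2.20-fold, log2 fold change -1.14, SE 0.35, adjusted p = 0.02). Without Y2 the adjusted p was just over the threshold (log2 fold change -0.82, adjusted p = 0.0503), and it also missed without Y3 (log2 fold change -1.02, adjusted p = 0.0707) and with no scaling beyond library size (log2 fold change -0.85, adjusted p = 0.0634). Nfkb2 (p100, the precursor of p52) was at 17.2, 29.3, 27.1 and 16.7 CPM in MEFs and at 17.0, 5.0 and 11.8 CPM in mESCs. Y1 overlapped with O4, and the gene missed the threshold (log2 fold change -0.998, SE 0.39, adjusted p = 0.0575), but passed as higher in MEFs without Y1 (log2 fold change -1.43, adjusted p = 0.0222) and with DESeq2 (log2 fold change -0.98, adjusted p = 0.0312). Nfkb2 shares 14.9% of its 50-base sequences with other genes, mostly AC114539.1 on the other strand.

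Nfkb1 (p105, the precursor of p50), Rel and Relb did not pass. Nfkb1 was at 26.9, 25.3, 33.7 and 29.4 CPM in MEFs and at 22.1, 18.7 and 22.8 CPM in mESCs. Each MEF library was above each mESC library, by a small margin (log2 fold change -0.44, SE 0.19, adjusted p = 0.0838). Rel (c-Rel) was at 7.39, 6.71, 8.39 and 10.5 CPM in MEFs and at 7.04, 7.27 and 4.96 CPM in mESCs, with overlapping groups (log2 fold change -0.36, SE 0.31, adjusted p = 0.384). Relb, the partner of p52, was at 14.8, 9.30, 7.91 and 18.1 CPM in MEFs and at 8.02, 9.32 and 13.2 CPM in mESCs, and also overlapped (log2 fold change -0.30, SE 0.35, adjusted p = 0.519). Transcripts of all 5 subunits were therefore counted above the floor in every library of both cell types.

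Of the inhibitors, Nfkbia and Tnfaip3 passed with little to spare and Nfkbib did not pass. Nfkbia (IkB-alpha) was at 129, 138, 133 and 124 CPM in MEFs and at 94.5, 100.4 and 105 CPM in mESCs. All MEF libraries lay above all mESC libraries, with little spread in either group (1.31-fold, log2 fold change -0.39, SE 0.13, adjusted p = 0.0326). With no scaling beyond library size the difference was close to 0 (log2 fold change -0.11, adjusted p = 0.534). The call was also lost when O2, O3, Y1, Y2 or Y3 was left out, with log2 fold changes of -0.36 to -0.43 and an adjusted p of up to 0.107. Nfkbib (IkB-beta) was at 47.2, 43.8, 30.7 and 35.3 CPM in MEFs and at 43.0, 39.1 and 40.8 CPM in mESCs. Its groups overlapped (log2 fold change 0.06, SE 0.19, adjusted p = 0.815), and its exons overlap those of Ccer2 and Sirt2 on the other strand. Tnfaip3 (A20, which removes ubiquitin chains that carry the signal) was at 8.15, 3.96, 2.64 and 6.36 CPM in MEFs and at 0.325, 0.795 and 2.83 CPM in mESCs. O3 fell below Y3, so the groups overlapped (4.02-fold, log2 fold change -2.01, SE 0.70, adjusted p = 0.0353). With no scaling beyond library size it missed the threshold (log2 fold change -1.72, adjusted p = 0.0598), and the call was also lost when O1, O4, Y1 or Y2 was left out, with an adjusted p of up to 0.111 and log2 fold changes of -1.92 to -1.55.

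Of the 3 target genes, Ptgs2 was higher in MEFs and the other two did not pass. Ptgs2 (cyclooxygenase-2, which makes the precursor of prostaglandins) was at 43.6, 33.8, 18.0 and 14.5 CPM in MEFs and at 2.71, 1.02 and 0.236 CPM in mESCs. O1 was the highest and Y3 the lowest, and the groups were apart (20.3-fold, log2 fold change -4.35, SE 0.65, adjusted p = 2.84e-04). Vcam1, an adhesion molecule for white blood cells, was at 209, 279.7, 182 and 202 CPM in MEFs and at 205, 282 and 149 CPM in mESCs. The groups covered overlapping ranges (log2 fold change -0.04, SE 0.22, adjusted p = 0.897), and the sign turned with no scaling beyond library size (log2 fold change 0.24, adjusted p = 0.374). Icam1, an adhesion molecule that binds integrins on white blood cells, was at 1.25, 0.762, 2.4 and 2.23 CPM in MEFs and at 3.36, 4.43 and 3.89 CPM in mESCs. Every mESC library exceeded every MEF library, the one tested gene of the set for which this was so, and the test missed the threshold (log2 fold change 1.23, SE 0.49, adjusted p = 0.0611). Icam1 was called as higher in mESCs by DESeq2 (log2 fold change 1.25, adjusted p = 0.0492), with no scaling beyond library size (log2 fold change 1.498, adjusted p = 0.0266) and without O3 (log2 fold change 1.46, adjusted p = 0.0481), and 13.1% of its 50-base sequences are shared, mostly with Gm47079 on the other strand.

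**Figure D3:**
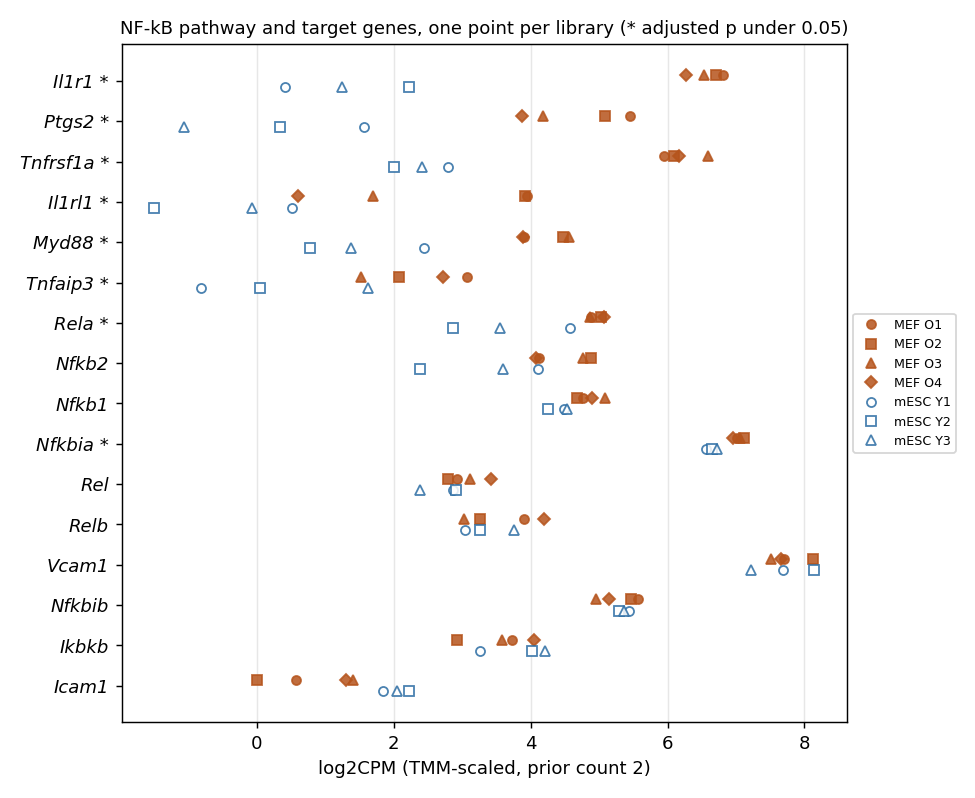
Level of the 16 NF-kB pathway and target genes in every library (horizontal axis, log2CPM with a prior count of 2), with MEF libraries as filled and mESC libraries as open symbols and an asterisk at genes with an adjusted p under 0.05. The receptors Il1r1 and Tnfrsf1a and the target Ptgs2 are widely separated, while Vcam1, Nfkbib, Ikbkb, Rel and Relb overlap.

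Counted over libraries rather than by the test, 19 of the 35 tested genes had every MEF library above every mESC library, 1 had the reverse, and 15 overlapped. Over all genes tested, 26.2% had every MEF library above and 25.9% every mESC library above. Of the 15 that overlapped, Ccl17, Cxcl13 and Tnfaip3 were nevertheless called. The 8 chemokines that passed the filter with no mESC library above its level could hardly show the reverse order. All of them but Ccl17 and Cxcl13 are among the 19.

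Levels within MEFs also differed between libraries, and not in 1 way. Ccl2, Ccl7, Ptgs2, Il1rl1, Cx3cl1 and Ccl20 were higher in O1 and O2 than in O3 and O4. Cxcl14, Ccl9 and Ccl5 were highest in O3 and O4. Cxcl12 and Cxcl1 differed little between the MEF libraries, with 10.6 ± 1.56 CPM for Cxcl1 (SD, n = 4). Of the 35 genes, 6 ranged more than 4-fold over the MEF libraries or had a MEF library at 0. Leaving out O3 and O4 together, an alternative chosen after seeing the data, left 17 genes higher in MEFs and 2, Icam1 and Ccl25, higher in mESCs. Ccl2 (log2 fold change -8.56, adjusted p = 3.86e-07), Ccl7 (log2 fold change -7.19, adjusted p = 6.75e-06) and Cxcl12 (log2 fold change -5.85, adjusted p = 3.74e-07) were then still called.

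Among mESC libraries, the low counts were unevenly spread, and leaving out 1 library moved several fitted folds of the set by over 1.5 times, each of those named here to a larger difference. Without Y1, log2 fold changes were -8.64 for Ccl5, -7.24 for Cxcl13, -5.41 for Ptgs2, -4.37 for Il1rl1, -3.28 for Myd88 and -1.75 for Rela. Without Y2 they were -8.25 for Ccl17 and -5.91 for Il1r1. Without Y3, besides Cxcl1 and Cxcl5, they were -8.08 for Ccl20, -7.49 for Ccl7, -6.46 for Ccl11 and -3.22 for Tnfaip3. All of these genes stayed called as higher in MEFs in those fits.

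**Figure D4:**
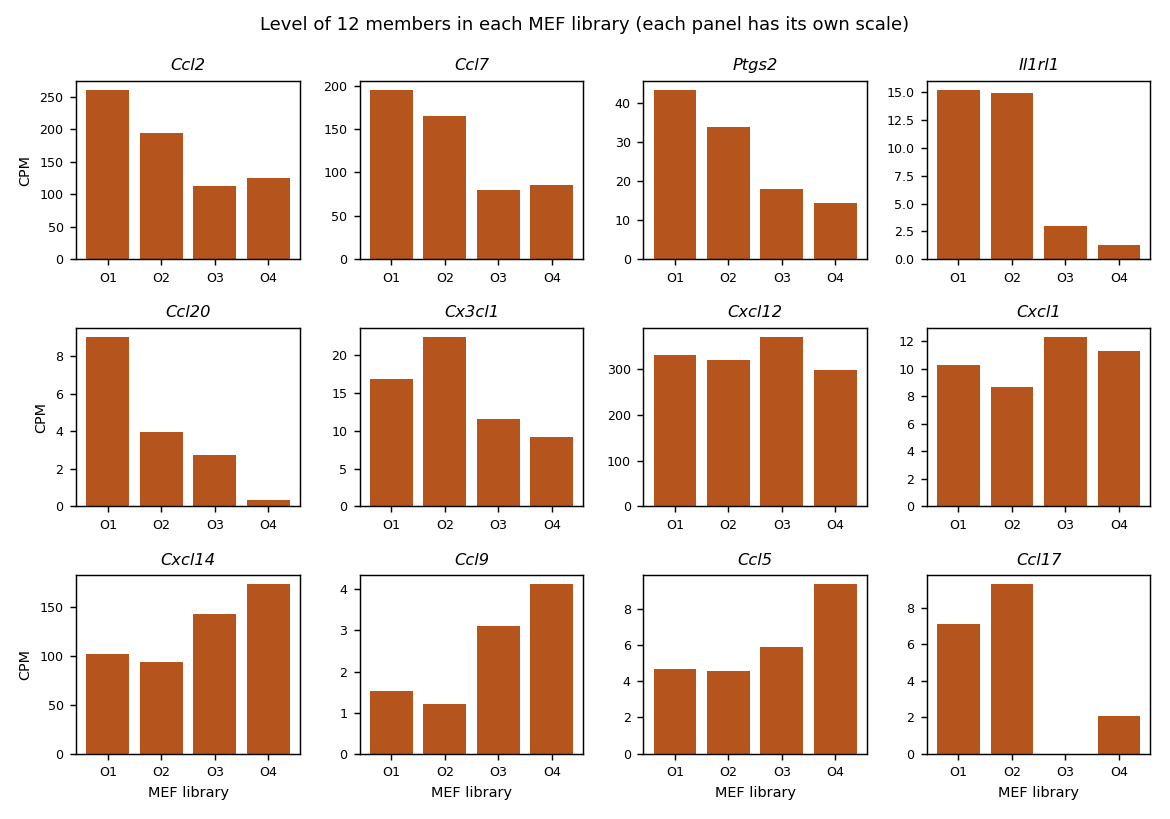
CPM of 12 genes of the set in each MEF library (vertical axis, from 0, with its own scale in each panel; the horizontal axis gives the library). Ccl2, Ccl7, Ptgs2, Il1rl1, Ccl20 and Cx3cl1 are highest in O1 or O2, Cxcl14, Ccl9 and Ccl5 in O4, and Ccl17 has 0 counts in O3.

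Several genes of the set are known from macrophages as well, so markers of other cell types were measured beside them. The 12 macrophage markers summed to between 28.0 and 98.8 CPM in MEFs, with 88.7 in O3 and 98.8 in O4, and to between 24.3 and 32.0 CPM in mESCs. All 12 were over the floor in some MEF library, and C1qb, C1qc and Lyz2 of the 8 tested were higher in MEFs, while Cd68 was higher in mESCs. Of the 12, 8 were highest in O3 or O4 among the MEF libraries, while Csf1r and Cd14 were highest in O1 and Cd68 and Adgre1 in O2. Lyz2, the largest contributor to the sum in O3 and O4, was at 6.62, 8.69, 32.7 and 35.8 CPM in MEFs, and Csf1r was at 22.6, 6.40, 17.3 and 12.9 CPM. Ptprc, from the blood cell list, and the macrophage marker Adgre1 were low, at 1, 6, 17 and 6 counts for Ptprc and 3, 10, 0 and 8 counts for Adgre1 in MEFs. Ccl9, Ccl5 and Cxcl14 had their highest levels in the libraries with the largest macrophage marker sums, and Ccl2 and Ccl7 did not. The fibroblast marker sums were also largest in O3 and O4, at 23690, 27740, 40749 and 32276 CPM in O1 to O4. All fibroblast markers but Col1a1 and Thy1 were higher in O3 and O4 than in O1 and O2. The 9 blood cell markers summed to between 4.70 and 24.0 CPM in MEFs and to between 56.0 and 68.0 CPM in mESCs (1 higher in MEFs, 1 in mESCs, of 4 tested). The mESC sums were mostly Laptm5 (52.6 to 62.4 CPM), and without it the other 8 summed to between 4.13 and 19.6 CPM in MEFs and between 2.61 and 7.55 CPM in mESCs. The 7 endothelial markers summed to between 25.6 and 38.8 CPM in MEFs and between 54.3 and 83.9 CPM in mESCs (0 higher in MEFs, also at an unadjusted p under 0.05 and by DESeq2, and 2 in mESCs, Pecam1 and Vwf, of 5 tested). Without these 2 genes the sums were 13.7 to 24.0 CPM in MEFs and 10.4 to 17.7 CPM in mESCs. Genes that respond to cell handling (Fos, Jun and others, 12 tested) were higher in MEFs in 3 cases and in mESCs in 6, and summed to between 855 and 1033 CPM in MEFs and between 1260.4 and 1590.1 CPM in mESCs. For its chromatin assay the study sorted THY1+ MEFs and THY1-/SSEA1+/EPCAM+ mESCs, and whether the RNA samples were sorted in this way is not stated. The part of these cell types and of handling in the levels above was not tested.

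Beyond the set, 113 other genes of the same pathways were looked at in lists by role, of which 73 could be tested. Of these, 31 (42.5%) were higher in MEFs and 9 (12.3%) in mESCs, beside 25.0% and 22.8% of all genes tested, with a median log2 fold change of -0.93. Some of the 73, such as Tlr4, Traf5, Il6 and Ch25h, passed the filter with no mESC library above its level. Such genes could hardly be called in the other direction, and the medians of these lists describe the tested genes only. Receptors for chemokines were mostly at low counts, and 6 of 23 could be tested. Cx3cr1, the receptor of Cx3cl1, was at 3.84, 4.73, 2.04 and 7.47 CPM in MEFs and at 1.08, 2.27 and 0.590 CPM in mESCs (log2 fold change -1.76, SE 0.61, adjusted p = 0.0344), and lost its call when O2, O4, Y1 or Y3 was left out and with no scaling beyond library size (log2 fold change -1.499, adjusted p = 0.0609), while without Y2 its log2 fold change was -2.40. Cxcr2 was at 1.25, 1.52, 0.719 and 1.27 CPM in MEFs and at 2.60, 1.82 and 25.1 CPM in mESCs. Y3 held most of its counts, and without Y3 the call was lost (log2 fold change 0.89, adjusted p = 0.303, against log2 fold change 3.04, SE 0.84, adjusted p = 0.0123 with it). Ackr3, a scavenger receptor for Cxcl12, was at 9.02, 10.5, 12 and 7.79 CPM in MEFs and at 9.97, 8.18 and 5.19 CPM in mESCs and was not called (log2 fold change -0.34, SE 0.32, adjusted p = 0.422). Cxcr4, the signalling receptor for Cxcl12, was not tested, with 12, 9, 1 and 2 counts in MEFs and 17, 6 and 0 in mESCs.

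Ligands of the TNF and interleukin-1 receptors had low counts. Tnf, Il1a and Il1b had at most 6 counts in any library, and 4 of 9 ligand genes could be tested, of which Il33 and Il1rn were higher in MEFs and 0 were higher in mESCs, also at an unadjusted p under 0.05 and by DESeq2. Il1rn, which encodes an antagonist of the interleukin-1 receptor, was at 2.88, 4.12, 2.52 and 3.02 CPM in MEFs and at 1.52, 1.25 and 0.590 CPM in mESCs (log2 fold change -1.46, SE 0.51, adjusted p = 0.0359). It lost its call when O2, O4, Y2 or Y3 was left out and with no scaling beyond library size (log2 fold change -1.19, adjusted p = 0.0774). Pf4, a CXC chemokine of platelets and the 1 tested gene of 3 chemokines whose names do not follow the Ccl or Cxcl pattern, was at 4.70, 3.66, 12.3 and 13.0 CPM in MEFs and at 1.41, 0.341 and 3.30 CPM in mESCs (log2 fold change -2.32, SE 0.71, adjusted p = 0.02). It was highest in O3 and O4, and its call was lost without both (log2 fold change -1.35, adjusted p = 0.208), without O3 (log2 fold change -2.08, adjusted p = 0.0513), and when Y1 or Y2 was left out, while without Y3 its log2 fold change was -3.24.

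Among 34 other receptor and adaptor genes, 12 of 25 tested (48%) were higher in MEFs (median -1.08). In mESCs 0 were higher, also at an unadjusted p under 0.05 and by DESeq2. The shares over all genes tested were 25.0% and 22.8%. Tlr4, the receptor for bacterial lipopolysaccharide, was at 9.31, 8.23, 3.95 and 3.34 CPM in MEFs and at 0, 0.114 and 0.236 CPM in mESCs (log2 fold change -5.60, SE 0.80, adjusted p = 1.96e-04). Traf5, an adaptor of TNF receptors, was at 7.48, 9.30, 7.55 and 7.0 CPM and 0.217, 0.682 and 0.472 CPM (log2 fold change -4.06, SE 0.48, adjusted p = 5.37e-05), and Ltbr, the lymphotoxin beta receptor, was at 19.2, 20.6, 22.3 and 19.9 CPM and 0.867, 0.795 and 2.48 CPM (log2 fold change -3.89, SE 0.41, adjusted p = 2.36e-05). None of these 3 genes had overlapping groups. With 3 mESC counts, Tlr4 had a pooled ratio of 57.3, with a 95% interval of 19.3 to 280.1, and without Y3 the log2 fold changes were -6.47 for Tlr4 and -4.60 for Ltbr.

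Of the 24 kinases and regulators, all tested, 5 (20.8%) were higher in MEFs and 6 (25%) in mESCs, close to the 25.0% and 22.8% of all genes tested (median -0.25). Nfkbiz, an atypical inhibitor protein of the nucleus, was at 39.5, 36.0, 41.0 and 40.6 CPM in MEFs and at 6.72, 6.48 and 8.61 CPM in mESCs (log2 fold change -2.43, SE 0.21, adjusted p = 4.94e-06). Birc3, a ubiquitin ligase of the TNF receptor complex, had a log2 fold change of -2.12 (SE 0.40, adjusted p = 0.00136), and Tab2, a partner of the kinase TAK1, one of -0.96 (SE 0.15, adjusted p = 3.16e-04). In the other direction, Nfkbid and Bcl3, which like Nfkbiz are atypical inhibitor proteins, were higher in mESCs. Nfkbid was at 0.384, 0.305, 0.240 and 0.318 CPM in MEFs and at 2.28, 1.48 and 3.07 CPM in mESCs (log2 fold change 2.80, SE 0.58, adjusted p = 0.00225). Bcl3 was at 5.56, 3.66, 3.24 and 5.25 CPM and 15.8, 10.1 and 16.2 CPM (log2 fold change 1.66, SE 0.32, adjusted p = 0.00161). Tab3, a relative of Tab2, was also higher in mESCs (log2 fold change 1.64, SE 0.47, adjusted p = 0.0142), but not without Y3 (log2 fold change 1.45, adjusted p = 0.0552).

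Among 20 further target genes, 13 were tested, 10 (76.9%) were higher in MEFs and 2 (15.4%) in mESCs (median -2.50). The shares over all genes tested were 25.0% and 22.8%. Ch25h, which makes an oxysterol with antiviral effects, was at 22.7, 25.8, 14.4 and 27.8 CPM in MEFs and at 0, 0.114 and 0.236 CPM in mESCs (log2 fold change -7.46, SE 0.57, adjusted p = 2.21e-06). The cytokine gene Il6 was at 8.63, 3.96, 4.55 and 4.13 CPM in MEFs and at 0, 0.227 and 0 CPM in mESCs (log2 fold change -5.89, SE 0.85, adjusted p = 2.27e-04). Csf1, the growth factor of macrophages, was at 75.8, 82.2, 44.7 and 46.4 CPM in MEFs and at 0.434, 3.64 and 2.01 CPM in mESCs (log2 fold change -4.94, SE 0.52, adjusted p = 2.46e-05). All 3 were apart between the groups. With 2 mESC counts for Il6, both in Y2, its pooled ratio was 75.4, with a 95% interval of 20.6 to 628, and that of Ch25h, with 3 counts, was 196, with a 95% interval of 66.8 to 952. Without Y2 the log2 fold change of Il6 was -8.47 and that of Csf1 -5.68, and without Y3 that of Ch25h was -8.33. Saa3, an acute phase protein, was at 0.0959, 1.98, 3.36 and 3.02 CPM in MEFs and at 30.5, 24.4 and 30.4 CPM in mESCs (log2 fold change 3.79, SE 0.60, adjusted p = 4.39e-04), and Sod2, the mitochondrial superoxide dismutase, was at 93.1, 95.3, 86.3 and 78.6 CPM and 232, 226 and 272 CPM (log2 fold change 1.46, SE 0.14, adjusted p = 1.25e-05). These 2 genes were the ones called as higher in mESCs, and every mESC library exceeded every MEF library for both.

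**Figure D5:**
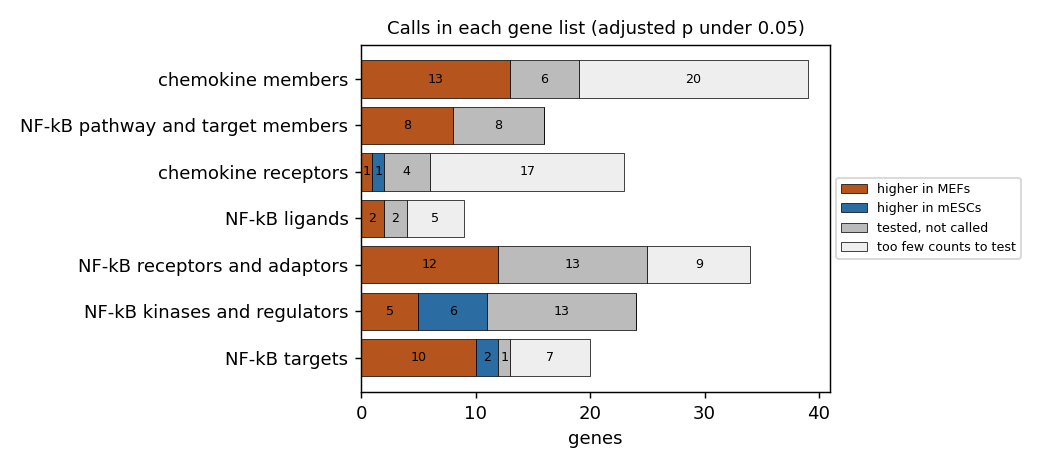
Number of genes (horizontal axis) in each list that were higher in MEFs, higher in mESCs, tested but not called, or too low to be tested, at an adjusted p of 0.05. Of the tested genes, 13 of 19 chemokines and 10 of 13 target genes were called as higher in MEFs. Of these chemokines, 8 passed the filter with no mESC library above its level, as did target genes such as Il6 and Ch25h. Such genes could hardly be called in the other direction. Of the 24 kinases and regulators, 5 and 6 were called in the respective directions, near the share over all genes.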

How the data were processed

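Gene counts of 7 RNA-seq libraries, 4 of MEFs and 3 of mESCs, were used. Per the labels and the study's methods, these were 3'-biased libraries with molecular identifiers. Reads were demultiplexed with Sabre, trimmed with Cutadapt, aligned to mm10 with STAR, collapsed by molecular identifier with Je and counted on exons with featureCounts. The submitters' processing notes name STAR 2.4.2a, and the methods name another version of it. The annotation release and strand setting are not given in the sources used here. The authors deposited whole-number counts per gene without normalization. No total rows were present, 26 rows with date-like symbols held 0.249% of counts and are not named, and the number of sample columns not used was 0. Column names give the cell type but are not tied to a sample number. Libraries of 1 cell type differed by more than sampling noise.

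In R 4.3.3, edgeR 4.0.16 and limma 3.58.1 were run on the counts with TMM scaling, filterByExpr (10 counts, total of 15), glmQLFit and glmQLFTest over all 7 libraries with no covariates, at an adjusted p of 0.05. The filter left 16580 genes. log2CPM used a prior count of 2. Where mESCs held 3 counts or fewer, pooled counts were compared by an exact conditional binomial interval (95%), which covers counting error only. Per sample, depth was 6528643 to 11441278 counts. Shared 50-base sequences and positions were computed from GENCODE M21 on GRCm38. The code was tested on simulated data. Alternatives were no scaling, DESeq2's size factors, DESeq2 1.42.0, other filters, a test against a fold change of 2, a prior count of 0.5 and leaving out each library. Every tested gene of the set is named, with the untested genes that reached over 3 counts, and in each other list the 3 called genes with the largest fold change in each direction. The genes and lists were chosen with earlier results of these data known. Ackr3 and Cxcr4, marker genes, Tnf, Il1a and Il1b and the other untested genes were named outside this rule, after their values were seen.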

Additional observations from a re-analysis of the deposited data

Results flagged for a closer look

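Of 54 genes screened (35 of the set and 19 from the other lists), 2 had a MEF library far from the others of its group. Such a gap is found by chance in about 1 in 20 groups of this size. Ccl27b was at 3.96 CPM in O2, above the other MEF libraries. Il6 was at 8.63 CPM in O1, above the other MEF libraries.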

How the results depend on the processing

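No paired analysis was possible because column names and sample numbers are not linked. The count of chemokine and NF-kB genes higher in MEFs was 21, and 18 with no scaling, 21 with DESeq2's size factors, 22 with DESeq2, 18 with the test against a fold change of 2 and 16 to 20 when each library was left out. With at least 10 counts required in every library of a cell type, 28 genes were tested and 18 called in either direction. Of these 18, 16 were among the 21, and the calls of Il1rl1, Ccl20, Cxcl13, Ccl17 and Ccl9 were lost. The count higher in mESCs, 0, became 2 with no scaling, 1 with DESeq2, 1 with the filter of at least 10 counts in every library of a cell type, 2 without O3 and O4 and 0 to 1 when each library was left out (1 without O3). Against a fold change of 2, other pathway genes called fell to 18 higher in MEFs and 5 in mESCs, and all genes called to 3991 (2277 in MEFs, 1714 in mESCs) from 7938. With no scaling, 60.8% of all calls were higher in mESCs (3345 genes in MEFs, 5180 in mESCs) in place of 47.7%, and the median of all genes moved by 0.28. Of 732 fitted values under the alternatives, 666 kept direction and side of the threshold, 45 lost and 11 gained a call, and 10 turned direction, none of them of a called gene. Those were Vcam1 (0.24 with no scaling, -0.30 to 0.15 when each library was left out), Nfkbib (-0.18 without O3 and O4, -0.048 to 0.16) and Cxcl9 (0.72 without O3 and O4, -0.79 to 0.0036), and, when each library was left out, Ccl27b (-0.77 to 0.16), Cxcl16 (-0.051 to 0.53) and Ccl27a (-0.072 to 0.091). With a prior count of 0.5, the log2CPM differences of Ccl11 (-5.35), Ccl5 (-6.13) and Ccl9 (-4.23) moved beyond the spread and 32 did not. DESeq2 gave no adjusted p for 1 of these genes, Cxcr2. The causes were not tested. Genes under the floor in a group, and those with shared or antisense exons, are limited by depth and by the unknown strand setting.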
